A study of Mus musculus with 24 samples.

Results

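Cxcr6 and 8 genes that flank it on mouse chromosome 9 were followed in CD8+ T cells with and without a conditional deletion of Tcf7, before and during activation. The members were taken by name as Cxcr6, Fyco1, Ccr9, Lztfl1, Sacm1l, Limd1, Xcr1, Ccr1 and Ccr2, which are 9 of the 23420 genes listed for every library. The 24 libraries came from 6 mice that carried OT-I, a transgenic T cell receptor for an ovalbumin peptide, and were homozygous for a floxed Tcf7 allele (Tcf7 FL/FL). Mice 1 to 3, labelled Tcf7 cKO, also carried E8i-cre, a Cre recombinase under a Cd8 enhancer that is active in mature CD8+ T cells. Mice 4 to 6, labelled WT, had the floxed alleles without cre, so an effect of cre and one of the deletion cannot be told apart. CD8+ cells were enriched from spleen and lymph nodes with magnetic beads and sampled at 0 h. They were sampled again after 4, 8 and 24 h of activation by plate-bound antibodies to CD3 and CD28, with IL2 in the medium. Each mouse gave 1 library of 1000 sorted cells at each time, so each of the 8 groups holds 3 mice, and no ages are given in the labels. The title of the series links TCF1, the protein of Tcf7, with CXCR6, and the question addressed here is whether the genotype difference in Cxcr6 RNA was shared by the genes around it.

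TCF1 is a transcription factor of naive, memory and stem-like T cells that binds TCF/LEF sites in DNA. CXCR6 is a chemokine receptor of effector, memory and tissue-resident T cells. Its ligand, CXCL16, is made as a membrane protein by antigen-presenting cells and is shed by proteases. The same stretch of chromosome holds further chemokine receptor genes. CCR9 responds to CCL25 and is known for homing to the small intestine and thymus, XCR1 is the receptor for XCL1 and is best known from cross-presenting dendritic cells, and CCR1 and CCR2 are receptors of inflammatory chemokines on monocytes and effector T cells. The other members encode proteins inside the cell. FYCO1 links autophagosomes to kinesin motors, LZTFL1 is a regulator of protein traffic to cilia, SACM1L is a phosphatase of phosphoinositides, and LIMD1 is a scaffold protein with LIM domains.

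By GENCODE's gene models on GRCm38, to which mm10 corresponds, the members run in the order Limd1 (chr9:123478706-123521552), Sacm1l (chr9:123529759-123592600), Lztfl1 (chr9:123694416-123717697) and Ccr9 (chr9:123678439-123784330), whose longest transcripts reach across Lztfl1. Fyco1 (chr9:123789500-123851899), Cxcr6 (chr9:123806475-123811760), Xcr1 (chr9:123852315-123862029), Ccr1 (chr9:123962124-123968692) and Ccr2 (chr9:124101950-124113557) follow. Cxcr6, on the plus strand, lies inside an intron of Fyco1, which is on the minus strand. The intron of 17729 bp is the one between exons 15 and 16 of an annotated Fyco1 transcript (chr9:123801318-123819046), and no exon of another annotated gene overlaps those of Cxcr6. Exons of Fyco1, Ccr9, Lztfl1 and Sacm1l do overlap those of other annotated genes, and Smart-seq2 reads carry no strand, so reads in those stretches cannot be assigned by strand.

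The promoters of 4 members are shown because they bear on the question. Cxcr6 was higher in cKO cells at every time, Xcr1 and Ccr9 were the neighbours called higher when the times were summed, and Lztfl1 holds the same motif without a called genotype difference. Each is RefSeq's window on GRCm38.p6 of 250 bases before to 50 bases after a transcript start, read 5′ to 3′ on the gene's own strand. Capitals mark the TCF/LEF core, CTTTGA or its reverse complement TCAAAG. The windows are those of Cxcr6 (chr9:123806227-123806526, plus strand), Xcr1 (chr9:123861980-123862279, minus strand), Lztfl1 (chr9:123717576-123717875, minus strand) and Ccr9 (chr9:123766961-123767260, plus strand).
Cxcr6 promoter: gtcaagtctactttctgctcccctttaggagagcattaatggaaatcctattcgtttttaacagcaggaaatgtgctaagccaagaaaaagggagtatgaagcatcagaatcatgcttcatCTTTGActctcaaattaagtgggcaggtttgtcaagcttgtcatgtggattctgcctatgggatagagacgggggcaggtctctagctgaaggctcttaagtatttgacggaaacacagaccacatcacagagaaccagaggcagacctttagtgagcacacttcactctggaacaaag
Xcr1 promoter: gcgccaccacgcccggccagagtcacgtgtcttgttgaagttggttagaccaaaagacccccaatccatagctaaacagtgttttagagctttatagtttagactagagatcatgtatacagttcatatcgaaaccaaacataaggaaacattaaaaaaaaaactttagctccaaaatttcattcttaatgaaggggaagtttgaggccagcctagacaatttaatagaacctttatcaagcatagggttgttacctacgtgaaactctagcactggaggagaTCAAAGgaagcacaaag
Lztfl1 promoter: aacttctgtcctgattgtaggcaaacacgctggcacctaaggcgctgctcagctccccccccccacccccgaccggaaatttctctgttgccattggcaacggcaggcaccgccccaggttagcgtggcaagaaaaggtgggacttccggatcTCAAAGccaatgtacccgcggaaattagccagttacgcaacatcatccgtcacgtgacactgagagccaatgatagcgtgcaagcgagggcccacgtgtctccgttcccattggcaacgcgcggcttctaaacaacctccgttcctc
Ccr9 promoter: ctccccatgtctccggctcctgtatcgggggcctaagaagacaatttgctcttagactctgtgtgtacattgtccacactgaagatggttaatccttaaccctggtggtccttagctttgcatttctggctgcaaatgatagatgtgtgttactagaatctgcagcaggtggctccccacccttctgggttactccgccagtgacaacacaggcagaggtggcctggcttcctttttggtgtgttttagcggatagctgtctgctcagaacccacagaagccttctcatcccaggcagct
Counting the start base as 1 and the base before it as -1, the core begins at -129 in Cxcr6, at 34 in Xcr1 and at -97 in Lztfl1. This exact core was not found in the windows of Ccr9, Fyco1, Sacm1l, Ccr1 or Ccr2, and Limd1 was not matched. Variants of the core were not searched for, so no window is shown to lack a TCF/LEF site or to hold just the marked one. Of all 32851 RefSeq promoter windows of this length, 16% hold the core on either strand. A core of T-box factor sites, TCACAC or its reverse complement GTGTGA, was found in 14.5% of all windows and, among the members, in that of Ccr1. These matches are descriptions of letters in a window, not of binding.

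The libraries held 5846265 to 9700397 expected counts and 13694 to 17214 genes with a count. Gene-level Tcf7 was at 681 to 719 TPM in cKO and 499 to 567 TPM in WT cells at 0 h, and at 35.7 to 38.3 TPM in cKO and 62.6 to 77.0 TPM in WT cells at 24 h. These counts cover the whole gene, including what lies outside the floxed part, so they do not check the deletion and the groups go by their labels.

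Cxcr6 RNA was higher in cKO than in WT cells at 0, 4, 8 and 24 h, by 3.75, 3.58, 2.02 and 2.36-fold. Levels are given in TPM, the abundance of transcripts scaled for their length and to the same total in every library. The 0 h libraries held 432, 395 and 362 TPM of Cxcr6 in cKO mice 1, 2 and 3, against 108, 84.4 and 118 TPM in WT mice 4, 5 and 6. After 4 h there were 268, 255 and 261 TPM in cKO mice, against 72.4, 73.2 and 66.8 TPM in WT mice. By 8 h there were 252, 238 and 228 TPM in cKO mice, against 105, 119 and 115 TPM in WT mice. The lowest cKO library lay above the highest WT library at each of these times. The 24 h libraries held 57.5, 45.5 and 39.5 TPM in cKO mice, against 21.2, 16.7 and 22.5 TPM in WT mice, again without overlap. In bulk samples such as these, fewer cells that express a gene and less RNA per cell cannot be told apart.

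The genotype difference in Cxcr6 passed edgeR's quasi-likelihood test at every time, with p-values adjusted by Benjamini and Hochberg over the 11470 genes tested and a gene called at an adjusted p under 0.05. The log2 fold change of cKO over WT was 1.90 at 0 h (SE 0.129, 95% interval 1.64 to 2.17, adjusted p = 4.96e-11). It was 1.84 at 4 h (SE 0.131, interval 1.57 to 2.11, adjusted p = 1.89e-10) and 1.01 at 8 h (SE 0.127, interval 0.75 to 1.27, adjusted p = 3.06e-05). At 24 h it was 1.24 (SE 0.141, interval 0.95 to 1.53, edgeR adjusted p = 8.3e-06). With the 4 libraries of each mouse summed, so that 3 mice stand against 3, the value was 1.64 (SE 0.101, edgeR adjusted p = 0.000361). Each of these 5 calls was kept in every alternative run, with mice left out in turn, other scaling, other filters, DESeq2 and limma.

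**Figure D1:**
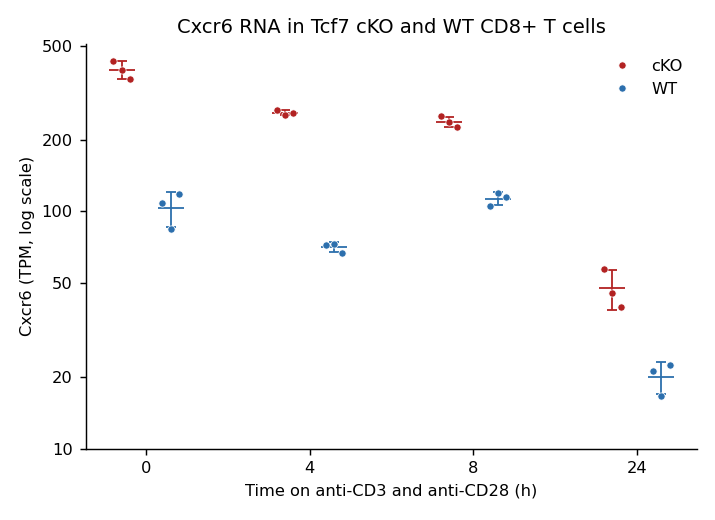
Cxcr6 level in TPM (log scale) by time on anti-CD3 and anti-CD28 in h, with cKO in red left of WT in blue. Points are libraries, 1 per mouse, and bars give the mean ± SD of 3 mice. The cKO libraries lie above the WT libraries at each time, from 362 to 432 against 84.4 to 118 TPM at 0 h and from 39.5 to 57.5 against 16.7 to 22.5 TPM at 24 h.

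Ranked by mean, Cxcr6 was at 396 ± 34.8 TPM in cKO at 0 h, 261 ± 6.52 in cKO at 4 h and 239 ± 11.9 in cKO at 8 h (SD, n = 3 each, here and below). WT cells at 8 h (113 ± 7.07 TPM) and at 0 h (104 ± 17.4 TPM) came next, followed by WT at 4 h (70.8 ± 3.47 TPM). The lowest groups were cKO at 24 h (47.5 ± 9.14 TPM) and WT at 24 h (20.1 ± 3.04 TPM). Neighbouring groups in this order had separate ranges except WT at 8 h and WT at 0 h, which overlapped. The lowest of the cKO libraries within 8 h (228 TPM) was therefore above the highest WT library of any time (119 TPM).

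Within each genotype Cxcr6 fell strongly by 24 h. In cKO cells the log2 fold change against 0 h was −0.52 at 4 h (edgeR adjusted p = 0.000675), −0.61 at 8 h (adjusted p = 9.48e-05) and −2.98 at 24 h (adjusted p = 4.78e-18). In WT cells it was −0.45 at 4 h (edgeR adjusted p = 0.00384), 0.29 at 8 h (adjusted p = 0.0488) and −2.32 at 24 h (adjusted p = 4.89e-15). The decrease in WT at 4 h lost its call without mouse 6 (−0.30, adjusted p = 0.113) and the increase at 8 h lost it without mouse 5 (0.05, adjusted p = 0.754) or mouse 2 (0.29, adjusted p = 0.0827). Relative to its own 0 h library, Cxcr6 TPM at 8 h stood at 58.3, 60.2 and 63.0% in cKO mice 1 to 3, against 97.4, 141 and 97.5% in WT mice 4 to 6. At 24 h it stood at 13.3, 11.5 and 10.9% in cKO mice and 19.6, 19.8 and 19.0% in WT mice, so the share kept was lower in every cKO mouse at both times.

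Whether the genotype difference itself changed with time was tested as an interaction with 0 h. For Cxcr6 it was −0.07 at 4 h (SE 0.18, edgeR adjusted p = 0.977), −0.89 at 8 h (SE 0.178, adjusted p = 0.101) and −0.66 at 24 h (SE 0.189, adjusted p = 0.45), none of them called. With the mouse as a block the 8 h value was −0.90 and passed (edgeR adjusted p = 0.0245), as it did with DESeq2 (adjusted p = 0.00191) and without a filter on low counts (adjusted p = 1.07e-07). Without mouse 5 the 8 h value was −0.65 (edgeR adjusted p = 0.442). The 24 h value passed without a filter alone (−0.75, edgeR adjusted p = 0.00166). Over all genes, 0.00872% were called in the 4 h interaction, 0.00872% in the 8 h one and 0.0174% in the 24 h one.

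Fyco1, the gene that Cxcr6 lies in, was not called between the genotypes at any time. Its 0 h level was 7.80, 8.29 and 8.02 TPM in cKO mice, against 9.40, 10.6 and 7.69 TPM in WT mice. Its 4 h level was 6.17, 6.34 and 7.39 TPM in cKO mice, against 4.71, 4.86 and 5.39 TPM in WT mice, with every cKO library above every WT library. At 8 h and 24 h the ranges overlapped, with 2.96 to 5.00 TPM in cKO and 2.41 to 4.49 TPM in WT at 8 h and 1.40 to 1.47 TPM in cKO and 1.15 to 1.98 TPM in WT at 24 h. Fitted log2 values of cKO over WT at 0, 4, 8 and 24 h were −0.22, 0.36, 0.13 and −0.04, none of them called by edgeR (adjusted p = 0.849, 0.387, 0.83 and 1). Over the summed times the difference was 0.10, with a 95% interval of −0.06 to 0.25 (edgeR adjusted p = 0.586).

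Xcr1, the next gene on the far side of Fyco1, was low throughout. The cKO mice had 2.51, 3.00 and 3.83 TPM at 0 h, against 1.93, 1.75 and 2.47 TPM in WT mice. The cKO mice had 3.30, 3.48 and 6.01 TPM at 4 h, against 1.72, 2.09 and 2.63 TPM in WT mice. At these times the lowest cKO library lay above the highest WT library, at 0 h by a small margin. By 8 h the ranges met, with 1.25, 2.22 and 2.21 TPM in cKO mice, against 1.12, 0.94 and 1.64 TPM in WT mice. At 24 h Xcr1 was at 0.25 to 0.46 TPM in cKO and 0.14 to 0.35 TPM in WT, with 24.3 counts over the cKO libraries and 18.2 over the WT libraries. On the log2 scale cKO over WT was 0.55, 0.93, 0.57 and 0.35, not called by edgeR at any time (adjusted p = 0.717, 0.126, 0.569 and 1). Summed over the times Xcr1 was called higher in cKO, by a log2 of 0.76 (SE 0.176, interval 0.40 to 1.13, edgeR adjusted p = 0.0162). That call was lost without mouse 2 (adjusted p = 0.0553), mouse 4 (0.0897) or mouse 5 (0.0926), with limma on TPM (0.192 and 0.273) and in the mean of the 4 contrasts (0.0781).

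Ccr9 was abundant before activation and nearly gone at 24 h in both genotypes. It measured 84.2, 97.7 and 107 TPM in cKO mice at 0 h, against 81.7, 76.1 and 88.9 TPM in WT mice, with overlap. It measured 9.50, 10.0 and 17.4 TPM in cKO mice at 4 h, against 7.24, 8.62 and 6.16 TPM in WT mice, without overlap. The 8 h ranges overlapped, with 10.9, 6.05 and 11.3 TPM in cKO mice, against 8.54, 3.71 and 7.11 TPM in WT mice. It measured 1.74, 1.29 and 1.26 TPM in cKO mice at 24 h, against 0.72, 0.83 and 0.41 TPM in WT mice, without overlap. The fitted log2 values of cKO over WT were 0.19, 0.70, 0.50 and 1.12 at 0, 4, 8 and 24 h, none called by edgeR (adjusted p = 0.922, 0.243, 0.529 and 1). Without a filter on low counts the 4 h difference passed (edgeR adjusted p = 0.0256). Summed over the times Ccr9 was called higher in cKO by a log2 of 0.43 (SE 0.0535, interval 0.32 to 0.55, edgeR adjusted p = 2.7e-05), which is a 1.35-fold difference beside 3.12-fold for Cxcr6. The call was lost with limma on log2(TPM + 1) (adjusted p = 0.0566) and kept without each mouse in turn. Counts were summed before scaling, so a time with more counts weighed more. Most Ccr9 counts came from 0 h (6476 over the cKO libraries, 4711 over the WT libraries). Library totals at 0 h were 6945429 to 9637768 in cKO and 6308908 to 8429234 in WT, and the part of uneven depth was not tested. With equal weight for each time, log2(CPM + 0.5) of Ccr9 differed by 0.58 (CPM, counts scaled to library size).

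Lztfl1, Sacm1l and Limd1 were expressed in both genotypes and not called between them. Lztfl1 was at 10.2 to 14.1 TPM in cKO and 8.57 to 11.5 TPM in WT at 0 h, and at 15.4 to 16.1 TPM in cKO and 15.2 to 16.1 TPM in WT at 24 h. Its cKO libraries lay above the WT libraries at 4 h alone, with 13.5 to 16.8 TPM in cKO and 11.8 to 13.1 TPM in WT. Sacm1l was at 17.6 to 24.1 TPM in cKO and 19.9 to 23.1 TPM in WT at 0 h, with overlap also at 4 and 8 h. At 24 h it was at 30.1 to 30.3 TPM in cKO and 31.3 to 32.5 TPM in WT, a small step in the other direction without overlap. Limd1 was at 39.6 to 47.3 TPM in cKO and 42.2 to 42.7 TPM in WT at 0 h, and its ranges were apart at 8 h (26.0 to 28.2 TPM in cKO, 20.9 to 25.0 TPM in WT). Over the 4 times log2 cKO over WT lay between 0.02 and 0.21 for Lztfl1, between −0.08 and 0.28 for Sacm1l and between 0.01 and 0.19 for Limd1, none called by edgeR. In the summed test their 95% intervals were −0.05 to 0.26, −0.08 to 0.15 and 0.03 to 0.23 (edgeR adjusted p = 0.539, 0.822 and 0.182).

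Ccr1 and Ccr2 were close to the limit of detection. Ccr1 had 14, 10 and 5 counts in cKO mice at 0 h, against 7, 12 and 11 counts in WT mice, which is 0.43 to 0.86 TPM in cKO and 0.66 to 0.91 TPM in WT. At 24 h it had 3 counts over the cKO libraries and 2 over the WT libraries. Ccr2 had 28.9 counts over the cKO libraries at 4 h, against 7.99 over the WT libraries, the largest gap between its groups, and the ranges overlapped (0.32 to 1.06 TPM in cKO, 0.08 to 0.38 TPM in WT). A library without a count allows up to 3 counts, and such limits cover counting error alone. Ccr2 had too few counts to enter the test over the 24 libraries and was tested in the summed libraries alone, with a log2 fold change of 0.52 (interval −0.24 to 1.28, edgeR adjusted p = 0.552). For Ccr1 the summed value was −0.45 (interval −1.24 to 0.35, edgeR adjusted p = 0.646). Both intervals lie below the 1.64 of Cxcr6, and small differences in these receptors were not detectable at this depth.

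**Figure D2:**
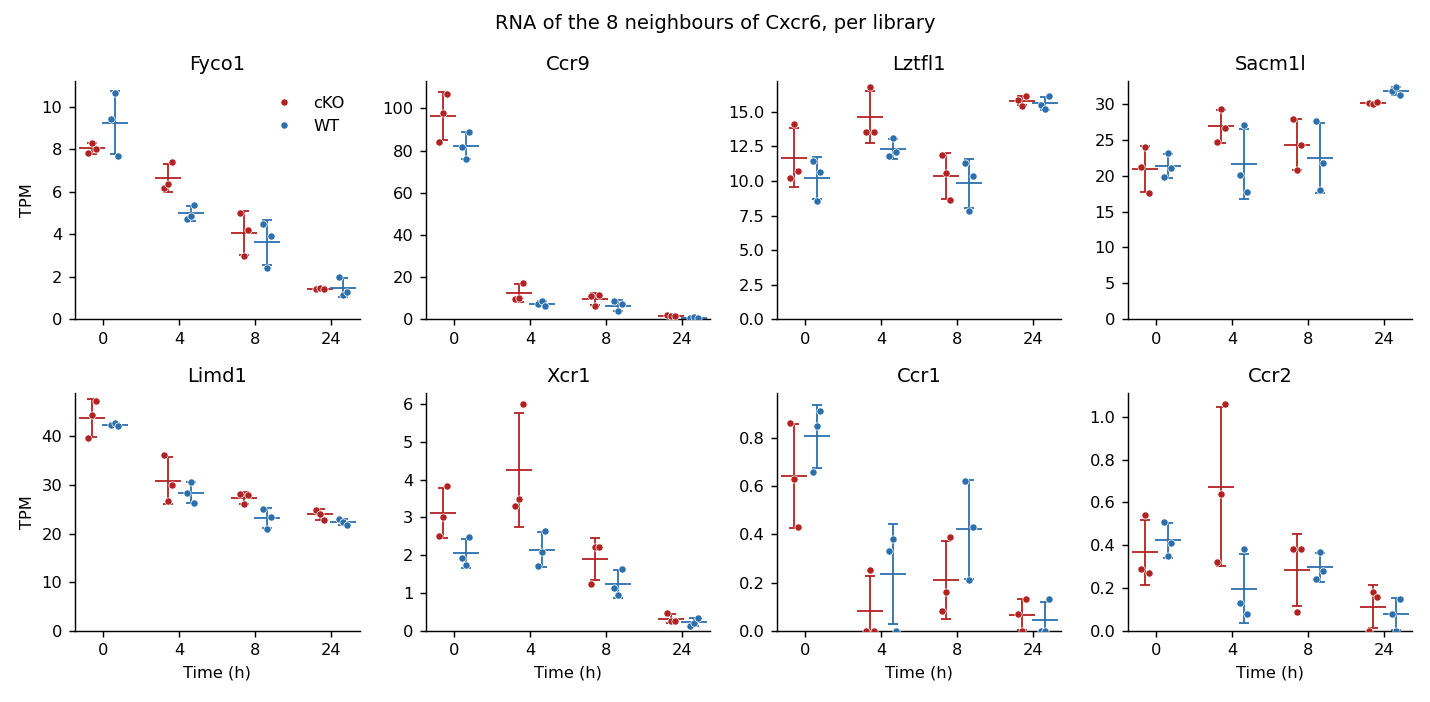
Level in TPM of each of the 8 neighbours of Cxcr6 by time in h, with cKO in red left of WT in blue and an axis of its own for each gene. Points are libraries, and bars give the mean ± SD of 3 mice. Ccr9 drops most with time, to at most 1.74 TPM in cKO and 0.83 TPM in WT at 24 h, while Lztfl1 and Sacm1l are highest at 24 h in the mean of both genotypes.

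Counted together, 8 of the 9 members entered the test over the 24 libraries, and edgeR called Cxcr6 and 0 of the 7 others at each time. The share of all genes called in either direction was 0.445% at 0 h, 0.82% at 4 h, 0.183% at 8 h and 0.105% at 24 h. At an unadjusted p under 0.05, edgeR had 0 of the 7 at 0 h, 4 at 4 h (Ccr9, Fyco1, Sacm1l and Xcr1), 0 at 8 h and 1 at 24 h (Ccr9), and DESeq2 and limma also called 0 of them at each time. Over all genes 7.37, 11.8, 9.93 and 3.69% had an unadjusted p under 0.05 at 0, 4, 8 and 24 h. The median log2 fold change of the 7 was 0.01 at 0 h, 0.28 at 4 h, 0.13 at 8 h and 0.10 at 24 h, beside medians between −0.03 and 0.01 over all genes tested. In the summed test Cxcr6 and 2 of the 8 others, Ccr9 and Xcr1, were called, both higher, where 3.44% of the 12640 genes tested were called and 2.44% were called higher. TPM ranges of the genotypes were apart for 14.5, 16.4, 10.6 and 13.1% of all genes at 0, 4, 8 and 24 h, with cKO above for 9.58, 10.5, 5.82 and 7.24%. Among the 8 neighbours they were apart with cKO above for Xcr1 at 0 h, for Fyco1, Ccr9, Lztfl1 and Xcr1 at 4 h, for Limd1 at 8 h and for Ccr9 at 24 h, and with cKO below for Sacm1l at 24 h.

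**Figure D3:**
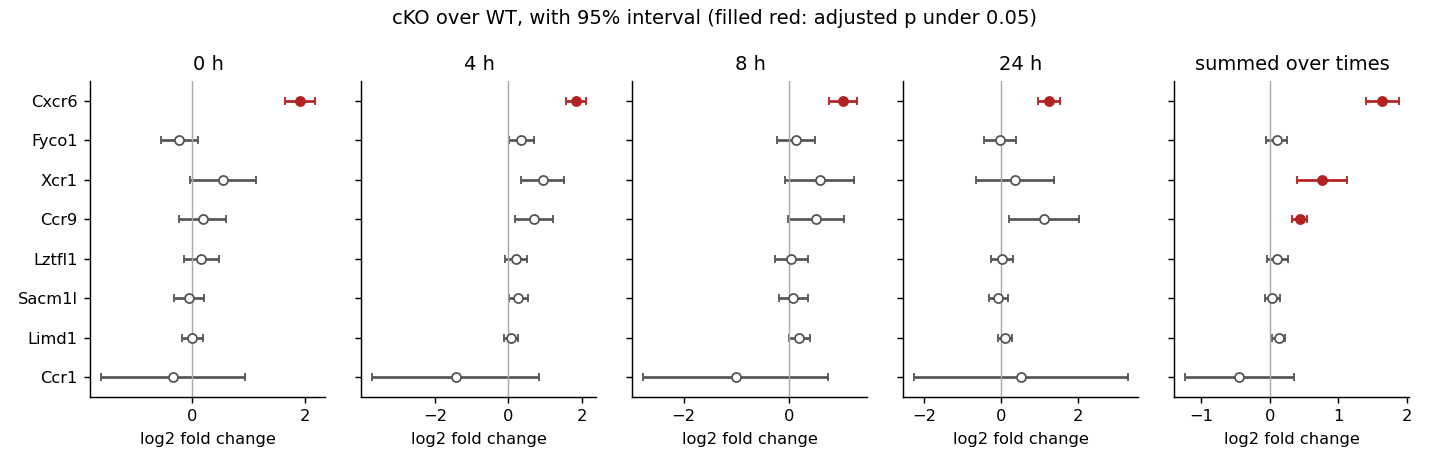
Fitted log2 fold change of cKO over WT with its 95% interval for the 8 members tested, at 0, 4, 8 and 24 h and with the 4 libraries of each mouse summed. Filled red points passed at an adjusted p under 0.05 and open points did not. Cxcr6 lies at 1.90, 1.84, 1.01, 1.24 and 1.64 and is red in all 5 panels, Xcr1 and Ccr9 are red in the last panel alone, and each panel has its own axis.

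How far Cxcr6 stood apart can be read from the intervals. At 0 h the lower bound for Cxcr6 (1.64) lay above the upper bound of every tested neighbour, the highest of which was that of Xcr1 (1.13). The same held at 4 h, with 1.57 for Cxcr6 and 1.52 for Xcr1. At 8 h the intervals of Xcr1 (to 1.22) and Ccr9 (to 1.03) reached past the lower bound for Cxcr6 (0.75). At 24 h those of Ccr9 (to 2.03), Xcr1 (to 1.36) and Ccr1 (to 3.29) reached past the lower bound for Cxcr6 (0.95).

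The difference between Cxcr6 and each neighbour was also tested within mice, as the log2 ratio of their CPM, counts scaled to library size, averaged over the 4 times. The ratio of Cxcr6 to Fyco1 was 3.43, 3.40 and 3.17 in cKO mice, against 1.74, 1.97 and 2.02 in WT mice, a difference of 1.43. Against Ccr9 it was 2.89, 2.97 and 2.45 in cKO mice and 1.73, 1.81 and 2.02 in WT mice, a difference of 0.91. Against Xcr1 it was 5.60, 5.32 and 4.98 in cKO mice and 4.54, 4.38 and 4.08 in WT mice, a difference of 0.97. The differences were 1.40 against Lztfl1, 1.44 against Sacm1l, 1.40 against Limd1, 1.79 against Ccr1 and 1.26 against Ccr2. In each of the 8 ratios every cKO mouse lay above every WT mouse, with a two-sided exact permutation p of 0.1, which is the smallest that 3 mice against 3 can give (0.1 also after adjustment over the 8). Cxcr6 made up 65.0 to 72.1% of the summed TPM of the 9 members in cKO and 34.0 to 40.4% in WT cells at 0 h. At 24 h it made up 35.3 to 43.5% in cKO and 18.8 to 23.9% in WT cells.

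Genes further along the chromosome were looked at in the same fit. Within 1 Mb of Cxcr6 the files hold 31 other genes, the 8 neighbours included, of which 20 were tested, and edgeR called 0 of them at each time. At an unadjusted p under 0.05 there were 1, 9, 0 and 2 of the 20 at 0, 4, 8 and 24 h, beside the 7.37, 11.8, 9.93 and 3.69% of all genes. The 9 at 4 h went both ways. Ccr9, Xcr1, Fyco1 and Sacm1l were higher in cKO, and Kif15, Tmem42, Zdhhc3, Lars2 and Gm10052 were lower. DESeq2 called 0 at each time, while limma on log2(TPM + 1) called 1 at 24 h. The median log2 fold change of cKO over WT of the 20 genes was 0.01 at 0 h, 0.00 at 4 h, 0.07 at 8 h and 0.00 at 24 h. In the summed test 2 of 22 were called, again Ccr9 and Xcr1.

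**Figure D4:**
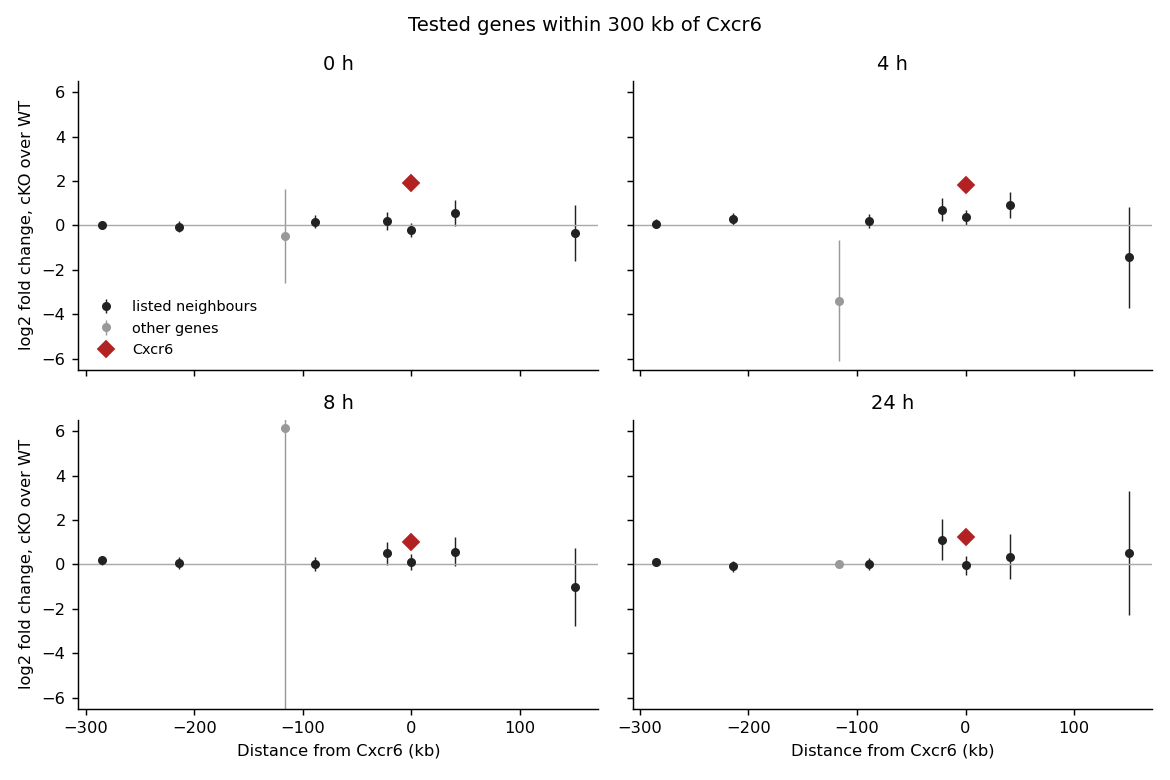
Fitted log2 fold change of cKO over WT with its 95% interval for the genes tested within 300 kb of Cxcr6, by distance from Cxcr6 in kb, at 0, 4, 8 and 24 h. Cxcr6 is the red diamond, listed neighbours are black and other genes are grey. Cxcr6 lies at 1.90, 1.84, 1.01 and 1.24, and Limd1, Sacm1l, Lztfl1 and Fyco1 lie between −0.22 and 0.36 in every panel. Xcr1 reaches 0.93 at 4 h and Ccr9 reaches 1.12 at 24 h, while Ccr1 lies at −1.43 and Gm10052 at −3.38 at 4 h. The widest intervals belong to genes with few counts such as Ccr1 and Gm10052. For Gm10052 the 8 h interval runs off the axis and the 24 h point has no interval drawn.

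Activation changed most of the neighbours, in different directions. Ccr9 fell most, with log2 fold changes against 0 h of −2.89, −3.24 and −5.99 at 4, 8 and 24 h in cKO cells, and −3.39, −3.55 and −6.91 in WT cells (edgeR adjusted p of at most 1.48e-09 for all 6). At 24 h it stood at 2.07, 1.32 and 1.18% of its 0 h TPM in cKO mice, against 0.882, 1.09 and 0.461% in WT mice. Fyco1 fell by 24 h, with −2.43 in cKO and −2.61 in WT cells. At 4 h its value was −0.20 in cKO cells (edgeR adjusted p = 0.3) and −0.78 in WT cells (adjusted p = 0.000137), and the interaction was 0.58 (SE 0.233, adjusted p = 0.626). Xcr1 was at 0.55 in cKO and 0.16 in WT cells at 4 h, neither called, and fell at 24 h, with −3.20 in cKO and −3.00 in WT cells (edgeR adjusted p = 4.61e-10 and 1.2e-08).

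Limd1 fell at each later time, with −0.41, −0.55 and −0.79 in cKO cells and −0.48, −0.72 and −0.88 in WT cells at 4, 8 and 24 h (edgeR adjusted p of at most 0.000271). Lztfl1 and Sacm1l rose by 24 h. For Lztfl1 the change was 0.51 in cKO (edgeR adjusted p = 0.00189) and 0.66 in WT cells (adjusted p = 0.000139), and for Sacm1l it was 0.60 in cKO (adjusted p = 7.57e-05) and 0.62 in WT cells (adjusted p = 4.81e-05). Ccr1 had 3 counts over the cKO libraries at 24 h and 29 at 0 h, and 2 counts over the WT libraries at 24 h and 30 at 0 h. Of the 7 neighbours tested, 2 were called higher and 5 lower at 24 h in cKO cells, and 2 higher and 5 lower in WT cells. Over all genes 37.3% were called higher and 39% lower at 24 h in cKO, and 36.9% higher and 40.1% lower in WT cells. At 4 h there were 2 higher and 3 lower in cKO cells and 1 higher and 3 lower in WT cells, where 29.6% of all genes were called higher and 27.6% lower in cKO, and 30% higher and 29.1% lower in WT. The higher calls at 4 h were those of Lztfl1, lost in 5 of 15 alternatives in cKO and in 6 of 15 in WT cells, and of Sacm1l in cKO, lost without mouse 3 (edgeR adjusted p = 0.0807). Ccr1 was among the lower ones in cKO, and its call was lost without mouse 1 (edgeR adjusted p = 0.171) or mouse 3 (0.0508). The 8 h counts were 1 higher and 3 lower in cKO cells and 0 higher and 3 lower in WT cells, beside 33.1% of all genes higher and 32.4% lower in cKO, and 33.4% higher and 34% lower in WT. The higher call at 8 h was that of Sacm1l in cKO (log2 0.33, edgeR adjusted p = 0.0248), lost in 7 of 15 alternatives, DESeq2 (adjusted p = 0.0557) and both limma fits among them. In WT cells Sacm1l passed without mouse 5 (log2 0.35, edgeR adjusted p = 0.0474). The interaction values of the neighbours other than Cxcr6 had edgeR adjusted p of 0.626 or more.

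The genes whose pattern over the 24 libraries was most like that of Cxcr6 were sought by Pearson's r in log2 CPM among 8475 genes. These points share mice, times and depth, so r is given as a description. The highest were Ccl5, a chemokine made by effector T cells (r = 0.94), Nt5e, an ectonucleotidase that makes adenosine (0.92), Rgs3, a regulator of G protein signalling (0.90), and Ms4a4c, a membrane protein (0.90). Amica1, an adhesion molecule (0.89), and Xdh, xanthine dehydrogenase (0.88), followed. Over the 24 libraries taken as deviations from their group means, r was 0.27 for Ccl5, −0.06 for Nt5e, 0.24 for Rgs3, 0.63 for Ms4a4c, 0.68 for Amica1 and −0.06 for Xdh. Among the neighbours r with Cxcr6 was 0.84 for Xcr1, 0.74 for Ccr9, 0.74 for Fyco1, 0.62 for Limd1, 0.39 for Ccr1, −0.47 for Lztfl1 and −0.53 for Sacm1l. Of the deviations from the group means, r was 0.18 for Xcr1, −0.28 for Ccr9 and −0.28 for Fyco1.

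Ligands of these receptors were listed as 12 chemokine genes, of which 7 were tested. Ccl5 was called higher in cKO at 0 h (304 ± 152 TPM in cKO, 39.3 ± 4.64 TPM in WT, log2 2.91, edgeR adjusted p = 0.0071) and at 4 h (220 ± 99.3 TPM in cKO, 47.6 ± 21.1 TPM in WT, log2 2.18, edgeR adjusted p = 0.033). Ccl3, a ligand of CCR1, was called higher in cKO at 4 h (4451 ± 157 TPM in cKO, 2421 ± 388 TPM in WT, log2 0.84, edgeR adjusted p = 0.0113). The list's median log2 fold change was 0.34, 0.57, 0.34 and 0.39 at 0, 4, 8 and 24 h, beside medians between −0.03 and 0.01 over all genes tested. Of all genes, 0.445% were called at 0 h and 0.82% at 4 h. Cxcl16, the ligand of CXCR6, was at 0.07 to 0.60 TPM in cKO and 0.44 to 0.90 TPM in WT at 0 h, and at 3.23 to 4.96 TPM in cKO and 2.24 to 6.72 TPM in WT at 4 h. Its ranges overlapped at these times and at 8 h, and at 24 h it was at 1.42 to 1.91 TPM in cKO and 1.16 to 1.40 TPM in WT, without overlap. Of 23 tested genes of receptor signalling and desensitisation, Rgs1 was called, higher in cKO at 0 h (15.5 ± 2.32 TPM in cKO, 6.80 ± 3.58 TPM in WT, log2 1.15, edgeR adjusted p = 0.00715). The median of that list was between 0.03 and 0.11 at the 4 times.

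The labelled cell type was checked against markers. All 8 markers of CD8 T cells were detected in both groups, with summed levels of 7573 to 8035 TPM in cKO and 6841 to 7294 TPM in WT at 0 h, and the sums were apart with cKO above at each of the 4 times. Of these markers, edgeR called Cd8a, a chain of the CD8 co-receptor, higher in cKO at 8 h (149 ± 14.8 TPM in cKO, 107 ± 11.5 TPM in WT, log2 0.43, adjusted p = 0.0139). It also called Cd2, an adhesion receptor of T cells, higher in cKO at 24 h (66.8 ± 3.63 TPM in cKO, 47.4 ± 1.64 TPM in WT, log2 0.50, edgeR adjusted p = 0.0363). Markers of memory-phenotype T cells, which also express Cxcr6, summed higher in every cKO library than in every WT library at each of the 4 times. All 8 were detected, and they summed to 2283, 1519 and 883 TPM in cKO mice at 0 h, against 413, 442 and 571 TPM in WT mice. At 4 h they summed to 1005, 679 and 507 TPM in cKO mice, against 329, 384 and 345 TPM in WT mice. At 8 h they summed to 876, 478 and 452 TPM in cKO mice, against 286, 292 and 268 TPM in WT mice, and the groups did not overlap. At 24 h they summed to 613, 392 and 351 TPM in cKO mice, against 271, 265 and 261 TPM in WT mice. Ly6c2 made up most of these sums at 0 h, and without it they were 335 to 659 TPM in cKO and 154 to 180 TPM in WT at 0 h, and 259 to 279 TPM in cKO and 243 to 258 TPM in WT at 24 h. Of the list Ccl5 alone was called by edgeR, at 0 and 4 h, and the list's median log2 fold change was 0.73, 0.96, 0.95 and 0.64 at 0, 4, 8 and 24 h. Over all genes tested the medians lay between −0.03 and 0.01, and 0.445, 0.82, 0.183 and 0.105% were called at 0, 4, 8 and 24 h. The part of memory-phenotype cells in the Cxcr6 difference was not tested.

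Markers of gamma-delta T cells, 5 of the 8 listed being in the files, summed lower in cKO, with 17.9 to 33.2 TPM in cKO and 70.6 to 109 TPM in WT at 0 h. Of all genes, 0.445% were called at 0 h and 0.82% at 4 h. Of the 3 gamma-delta markers tested, edgeR called 2 lower in cKO at 0 h and 1 at 4 h. These were 5830411N06Rik at 0 h (19.0 ± 6.09 TPM in cKO, 59.3 ± 13.0 TPM in WT, log2 −1.65, edgeR adjusted p = 0.000451) and at 4 h (6.11 ± 1.05 TPM in cKO, 13.5 ± 4.20 TPM in WT, log2 −1.17, edgeR adjusted p = 0.0353), and Cd163l1 at 0 h (4.91 ± 1.60 TPM in cKO, 22.6 ± 8.39 TPM in WT, log2 −2.21, edgeR adjusted p = 0.0379). At 0 h these 2 genes made up most of the sums in both genotypes. The sums were apart at every time, and at 24 h they were 0.17 to 0.83 TPM in cKO and 1.07 to 1.51 TPM in WT. Their part in the Cxcr6 difference was not tested either. Dendritic cell markers, of interest for Xcr1, summed to 2.29 to 3.75 TPM in cKO and 1.66 to 3.08 TPM in WT at 0 h, with Batf3 at 0 in cKO, and to 9.94 to 18.3 TPM in cKO and 9.49 to 16.7 TPM in WT at 4 h. At 24 h they summed to 32.1 to 35.1 TPM in cKO, against 20.6 to 30.8 TPM in WT, without overlap, with Clec9a and Siglech at 0 in both. Their part in the Xcr1 values was not tested. Monocyte and macrophage markers summed to 2.58 to 3.94 TPM in cKO and 3.93 to 5.63 TPM in WT at 0 h. NK cell markers summed to 1.21 to 4.61 TPM in cKO and 1.65 to 2.40 TPM in WT at 0 h, with Klra8, Klra9 and Klra4 at 0 in both. Innate-like T cell markers were at 24.8 to 33.5 TPM in cKO and 27.6 to 29.7 TPM in WT, CD4 T cell markers at 4.80 to 8.93 TPM in cKO and 7.23 to 9.14 TPM in WT, and B cell markers at 41.8 to 53.3 TPM in cKO and 33.2 to 37.3 TPM in WT at 0 h. Of the lists in this paragraph other than the gamma-delta one, B cell sums were apart at 0 h, with cKO above and with Ebf1 and Blnk at 0 in both. They were apart again at 8 h (3.28 to 6.66 TPM in cKO, 1.35 to 3.09 TPM in WT), and monocyte and macrophage sums were apart at 24 h with cKO below (1.31 to 2.39 TPM in cKO, 3.08 to 5.67 TPM in WT).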

How the data were processed

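Smart-seq2, which reads whole transcripts and carries no molecular identifiers, was used on 24 libraries of 1000 CD8+ T cells. STAR, RSEM, DESeq2 and mm10 are named in the submitters' processing notes, with no version or setting given in the sources used here. The deposited files give, per the file headers and for 23420 genes, RSEM's expected count, an estimate of the reads of a gene that need not be whole, and TPM. FPKM, also deposited, was not used. Identical libraries were not found (0 pairs).

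Rounded expected counts entered edgeR 4.0.16 (R 4.3.3), with robust quasi-likelihood, TMM scaling and its filter on low counts (11470 genes), in 1 model of 8 group means. The test over times used the libraries of each mouse, summed before scaling (12640 genes), so times with more counts weighed more. Tests are two-sided, with Benjamini and Hochberg adjustment within a comparison. The standard error is the absolute log2 value over the root of its F statistic, and 95% intervals use the t quantile of that test. Ratios of Cxcr6 to a neighbour used log2(CPM + 0.5), averaged over the 4 times. Alternatives were other scaling and filters, removal of the ribosomal gene Rn45s (7.39 to 20.6% of counts), DESeq2 1.42.0, limma 3.58.1 on log2(TPM + 1) and log2(TPM + 0.1), and each mouse left out. The fits were tested on simulated counts with known fold changes. Figures were drawn with matplotlib 3.10.9.

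All members were fitted in every comparison that allowed it, but not every fitted value is printed. List members and like genes were named by rule: up to 4 called members of a list and the 6 genes with the highest r among those with at least 5 CPM. The members and lists were chosen with earlier results of these data known. Replicates are separate mice. Each mouse was sampled at all 4 times, so the mouse number pairs samples across times, and deviations from the group means correlated between times of a mouse with r between −0.0846 and 0.163 over 36 pairs.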

Additional observations from a re-analysis of the deposited data

How the results depend on the processing

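The genotype difference in Cxcr6 kept its direction and its call under every alternative run at each time (log2 between 1.78 and 2.01 at 0 h, 1.80 and 1.88 at 4 h, 0.90 and 1.12 at 8 h, 1.08 and 1.33 at 24 h) and with the times summed (between 1.50 and 1.73). Its rise in WT at 8 h was not called with RLE size factors (0.27), a filter of 5 CPM (0.22), without Rn45s (0.20), with DESeq2 (0.27), limma on TPM (0.14 with either pseudocount) or the compared groups alone (0.29), and without a mouse it lay between 0.053 and 0.44. Its fall in WT at 4 h lay between −0.59 and −0.30 without a mouse. The 8 h interaction was called without a filter (−0.94), with DESeq2 (−0.90) and with the mouse as a block (−0.90), and the 24 h one without a filter (−0.75). The block changed no other time call of a member, and the neighbours' interactions, 0 of 21 called, had adjusted p of 0.654 or more with it. The 4 h interaction lay between −0.22 and 0.068 without a mouse. Without a filter, Ccr9 was called at 4 h, so that 1 neighbour and 1 gene within 1 Mb were. Within 1 Mb, 1 gene was called at 24 h by limma on log2(TPM + 1) and 1 with the compared groups alone. These causes were not tested.

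Small differences of neighbours that were not called changed sign. Without a mouse Fyco1 lay between −0.052 and 0.28 at 8 h and between −0.19 and 0.23 at 24 h, Lztfl1 between −0.060 and 0.20 at 8 h and −0.020 and 0.040 at 24 h, and Sacm1l between −0.17 and 0.10 at 0 h and −0.029 and 0.16 at 8 h. Limd1 lay between −0.0073 and 0.070 at 0 h and −0.049 and 0.15 at 4 h, Ccr1 between −0.34 and 2.93 at 24 h, and Lztfl1 at 8 h over 0 h in cKO between −0.22 and 0.075. Lztfl1 was at −0.099 at 8 h without the 8 h libraries of mice 2 and 5, and Sacm1l at 0.017 at 0 h without a filter. Those 8 h libraries were the lowest of their genotype in Fyco1 (2.96 and 2.41 TPM), Ccr9 (6.05 and 3.71 TPM) and Tcf7 (73.6 and 52.6 TPM). They were also the lowest in Sacm1l (20.8 and 18.0 TPM) and Limd1 (26.0 and 20.9 TPM). In Lztfl1, Xcr1, Ccr1 and Cxcr6 mouse 2 was not the lowest, and in Cxcr6 and Ccr2 mouse 5 was the highest of WT. With limma on TPM, Lztfl1 at 8 h over 0 h in WT was at −0.058 and −0.063 and Sacm1l at 4 h over 0 h in WT at −0.0013 and −0.0021. That scaling moved the median of all genes at 8 h over 0 h by up to −0.14.

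Genes called ranged over all alternatives between 21 and 136 at 0 h, 32 and 249 at 4 h, 7 and 135 at 8 h, 6 and 100 at 24 h, and 83 and 711 summed, beside 51, 94, 21, 12 and 435. Ccr1, Ccr2 and, at 24 h, Xcr1 had too few counts for small differences to be detectable.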
